A study of Mus musculus with 8 samples.

Results

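The aminoacyl-tRNA synthetase genes made up 36 of the 18193 genes measured on these arrays. They were taken by annotated symbol alone: a capital letter followed by "ars", with nothing, 1 or 2 after it, together with Eprs, Farsa, Farsb and Tarsl2. Of these, 19 were counted as cytosolic, 16 with a capital letter and "ars2" as mitochondrial, and Kars as both. The symbol of Tarsl2 ends in 2 as well, but it was counted as cytosolic from background knowledge. RNA came from C2C12 myotubes, the multinucleated muscle cells formed by an established mouse myoblast line. All cultures were differentiated in 2% serum for 3 days, then received an adenovirus, and were harvested 3 days later. The virus carried GFP alone or the construct labelled GFP-PGC-1α, and each was used without DFO or with 100 µM DFO (deferoxamine, an iron chelator). This gave 4 groups of 2 arrays, called GFP and PGC-1α where no DFO was added, and GFP plus DFO or PGC-1α plus DFO where it was. Every group therefore carried a virus and GFP, and there was no uninfected group. Both arrays of a group are biological duplicates by the submitters' account. The promoter that drives the constructs was not given in the labels, and the construct came only from the virus.

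Each synthetase joins an amino acid to the tRNAs that carry it, which is the step that sets the meaning of a codon. Cytosolic and mitochondrial protein synthesis use largely separate enzymes, all encoded in the nucleus, while Kars and Gars each supply both compartments. Several cytosolic enzymes sit together in the multi-synthetase complex, held by the scaffold proteins Aimp1, Aimp2 and Eef1e1. Genes of many cytosolic synthetases are known targets of ATF4, the transcription factor of the amino acid response, which binds a composite C/EBP-ATF element. PGC-1α is a coactivator of nuclear genes for mitochondrial function and acts in part through ERR factors.

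Those 2 elements were looked for in promoter windows of 300 bases (250 before to 50 after the start), taken from RefSeq's mouse genes on GRCm38.p6, because the cytosolic genes moved together in the results that follow. Windows were found for 27 of the 36 members; Cars, Hars, Hars2, Lars, Nars, Pars2, Rars, Vars and Wars had none. The letters TGATGNAA, a core of the C/EBP-ATF element, stood on either strand in 5 of 12 cytosolic windows (41.7%), in 0 of 15 mitochondrial windows (Aars2 has more than 1) and not in that of Kars. They were present in 1304 of all 32851 promoter windows (3.97%). The letters AAGGTCA, a core of the ERR element, were in none of these members' windows and in 1550 of the 32851 (4.72%). A match is only a match of letters, and no match says only that these letters are not in the window. The matches in Gars, Iars, Tars and Yars are shown with 10 bases on each side, because among the members all matches lay in cytosolic windows, 5′ to 3′ on the gene's own strand with the match in capitals. The position counts from the start to the first base of the match, and TTGCATCA or TTTCATCA is the element on the opposite strand.
Gars, chr6:55037961-55037988, + strand, -30: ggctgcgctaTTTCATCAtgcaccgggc
Iars, chr13:49682127-49682154, + strand, 7: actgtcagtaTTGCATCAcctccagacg
Tars, chr15:11399656-11399683, - strand, -15: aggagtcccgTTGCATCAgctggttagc
Yars, chr4:129189896-129189923, + strand, 3: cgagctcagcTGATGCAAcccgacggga

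The deposited values are probe-set intensities in arbitrary units, with array medians of 59.45 to 62.82. For each gene its brightest probe set was used, and no gene's level is set against that of another. Changes are differences of log2 intensity ± SE from limma, and adjusted p-values are two-sided, by Benjamini-Hochberg across the 18193 genes, with calls made at 0.05. Ppargc1a, the gene of PGC-1α, was 7.77 ± 0.55 higher with the construct without DFO (adjusted p = 0.00315) and 7.34 ± 0.55 higher with DFO (adjusted p = 0.00174). Markers of myotubes were all measured (14 genes), and their summed intensity was 83356 and 86454 with GFP, 68870 and 69589 with PGC-1α, 32846 and 33101 with GFP plus DFO, and 20488 and 21896 with PGC-1α plus DFO. None was 0, but 12 of the 14 fell when GFP cells had DFO, beside 12.5% of all genes called lower and 11.8% higher. Myog, a regulator of muscle differentiation, fell by 5.08 on the log2 scale, while Ckm and Actn2, also of differentiated muscle, changed by -3.28 and -3.10. Of 12 markers of undifferentiated myoblasts 5 rose, led by Id2, and 3 fell, among them Myod1 and Id3, in that comparison, and their summed intensity was 3570 and 3647 with GFP, 4307 and 4472 with PGC-1α, 3581 and 4106 with GFP plus DFO, and 4908 and 5459 with PGC-1α plus DFO. The beta-actin 5′ to 3′ signal ratio, which drops with degraded RNA, was 0.897 to 0.921 without DFO, 0.859 and 0.868 with GFP plus DFO, and 0.753 and 0.811 with PGC-1α plus DFO. The part of differentiation state and RNA quality in the results on the synthetases was not tested. In bulk RNA, fewer cells of a type and less RNA per cell cannot be told apart.

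DFO was set against none in GFP cells to ask how iron chelation alone moved the enzymes. Cytosolic synthetases were lower: 15 of 19 fell and 0 rose, and the median log2 change was -0.67, beside -0.02 over all genes. Over all genes 12.5% were called lower and 11.8% higher, and among the 9096 genes above the median level 20.7% were called lower. The groups did not overlap, with both DFO arrays below both arrays without it, for 18 of the 19 cytosolic genes, beside 33% of all genes. Kars fell too. Of the 16 mitochondrial synthetases 3 fell and 0 rose, a share near that of all genes. Their median was -0.39, and the groups did not overlap, again with the DFO arrays lower, for 10 of the 16. The difference between the cytosolic and mitochondrial sets was not tested.

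**Figure D1:**
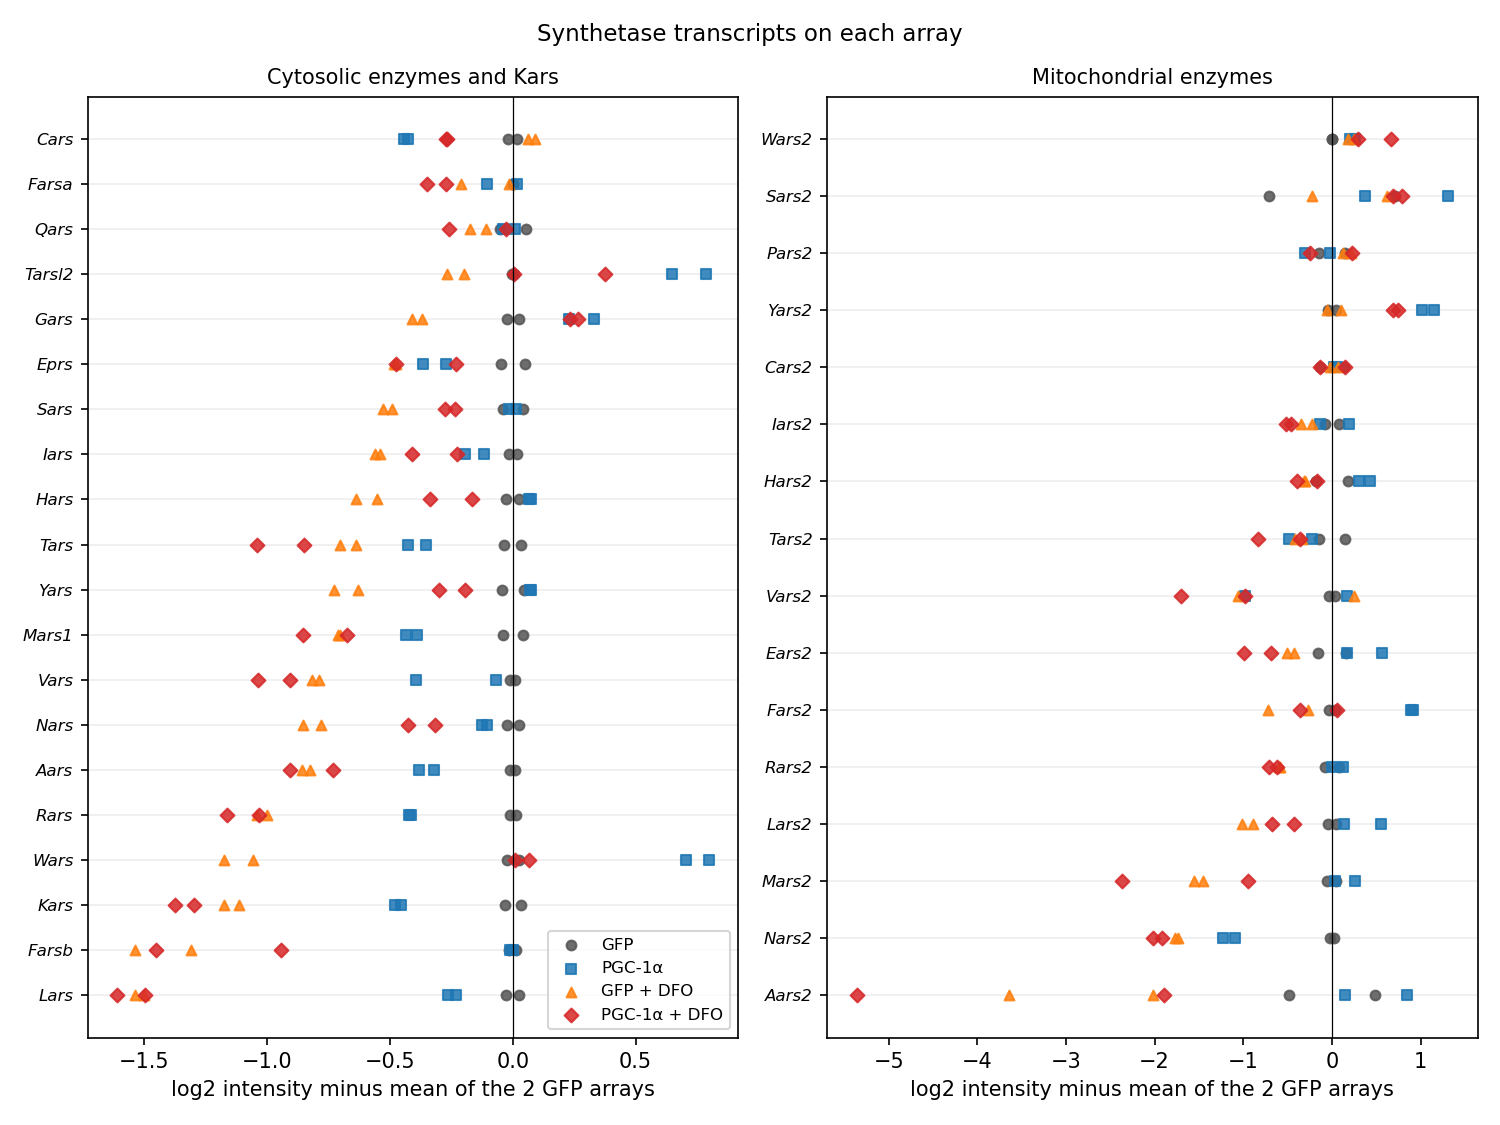
Log2 intensity of each synthetase transcript on each of the 8 arrays, minus the mean of the GFP arrays of the same gene (x axis, log2 units), for cytosolic enzymes with Kars (left) and mitochondrial enzymes (right). Marker shape and colour give the group, and genes are ordered by their GFP plus DFO arrays; most cytosolic genes have both GFP plus DFO arrays below 0, and Aars2 has the widest spread within a group. The x axes differ between the panels.

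The largest fall among the cytosolic enzymes was that of Lars, which charges tRNAs with leucine and sits in the multi-synthetase complex. Its probe set read 2164 and 2242.5 with GFP, 1834 and 1878 with PGC-1α, 779 and 759 with GFP plus DFO, and 780 and 723 with PGC-1α plus DFO. All 4 DFO arrays lay far below all 4 arrays without it. The change in GFP cells was -1.52 ± 0.08 (adjusted p = 0.000427).

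Farsb, the beta subunit of the cytosolic phenylalanine enzyme, read 1778 and 1812 with GFP, 1797 and 1779 with PGC-1α, 724 and 619 with GFP plus DFO, and 933 and 656 with PGC-1α plus DFO. Again no DFO array reached an array without DFO. The change was -1.42 ± 0.19 (adjusted p = 0.00522), and all 4 probe sets of Farsb fell with DFO when each was fitted on its own. Farsa, the alpha subunit of the same enzyme, read 862 and 861 with GFP and 745 and 852 with GFP plus DFO. Its change of -0.11 ± 0.10 did not pass (adjusted p = 0.512), so the transcripts of the subunits of this enzyme had values that far apart; the difference between them was not tested.

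Kars, whose gene gives both the cytosolic and the mitochondrial lysine enzyme, read 1716 and 1638 with GFP, 1203 and 1223 with PGC-1α, 775 and 743 with GFP plus DFO, and 682 and 647 with PGC-1α plus DFO. The 4 groups were stepwise lower in that order with no overlap. With DFO in GFP cells it fell by 1.14 ± 0.08 on the log2 scale (adjusted p = 0.000857).

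Wars, the tryptophan enzyme, which is also known as an interferon-induced gene, read 1158 and 1199 with GFP and 522 and 566 with GFP plus DFO, a change of -1.12 ± 0.09 (adjusted p = 0.00117). Rars, the arginine enzyme of the complex, read 4692 and 4618 with GFP and 2260 and 2330.5 with GFP plus DFO, a change of -1.02 ± 0.08 (adjusted p = 0.0013). For both genes each GFP plus DFO array was below each GFP array. Smaller falls were measured for Aars (-0.84 ± 0.09, adjusted p = 0.0031), Nars (-0.82 ± 0.08, adjusted p = 0.00254), Vars, Mars1, Yars, Tars, Hars, Iars, Sars, Eprs and Gars. These ran from -0.80 for Vars to -0.39 ± 0.08 for Gars, the glycine enzyme (adjusted p = 0.0241). All 5 genes whose windows hold TGATGNAA (Aars, Gars, Iars, Tars and Yars) were among those that fell. So were 4 of the 7 other cytosolic genes with a window (Eprs, Farsb, Mars1 and Sars). The 5 had changes from -0.84 (Aars) to -0.39 (Gars), and the 4 from -1.42 (Farsb) to -0.48 (Eprs). Lars, Wars, Rars and Nars fell too but had no window to search. With DFO in PGC-1α cells Aars and Tars of the 5 were called lower, and Farsb, Mars1 and Tarsl2 of the 7 others. A link between these letters and the falls was not tested.

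The 4 cytosolic genes that did not pass were Cars (0.08 ± 0.07, adjusted p = 0.53), Farsa, Qars (-0.14 ± 0.11, adjusted p = 0.428) and Tarsl2 (-0.23 ± 0.14, adjusted p = 0.318), the last a second threonine enzyme. For Cars both DFO arrays (1042 and 1063) were above both GFP arrays (1010 and 985), while 1 Farsa array with DFO lay within 10 units of those with GFP. Of the 7 measured members of the multi-synthetase complex, 6 fell (Eprs, Iars, Kars, Lars, Mars1 and Rars) and Qars did not pass. Their median was -0.71. Outside the complex 10 of 13 cytosolic enzymes fell, with a median of -0.67. Over all genes 12.5% were called lower. Eprs, the joint enzyme for glutamate and proline, has 3 bright probe sets: the one used gave -0.48 ± 0.11 (adjusted p = 0.0337), and the others -0.46 ± 0.20 and 0.05 ± 0.25 in the fit of every probe set on its own. In that fit none of the 3 passed, that of the probe set used at adjusted p = 0.073.

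In the mitochondrial set the enzyme for asparagine, Nars2, fell furthest among the 3 that passed. It read 851 and 821 with GFP, 357 and 391 with PGC-1α, 246 and 250.4 with GFP plus DFO, and 221 and 206 with PGC-1α plus DFO. The 4 groups did not overlap. The change with DFO in GFP cells was -1.75 ± 0.09 (adjusted p = 0.000376), larger in size than that of any cytosolic enzyme here. Lars2, the mitochondrial leucine enzyme, read 228 and 243 with GFP and 116 and 127 with GFP plus DFO (-0.96 ± 0.17, adjusted p = 0.0144). Rars2, the mitochondrial arginine enzyme, read 448 and 399 with GFP and 280 and 282 with GFP plus DFO (-0.59 ± 0.10, adjusted p = 0.0126).

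Among the 13 mitochondrial genes that did not pass, changes ran from -2.83 ± 1.23 for Aars2 (adjusted p = 0.173) to 0.21 ± 0.14 for Wars2 (adjusted p = 0.347). Aars2 read 61.4 and 31.5 with GFP and 10.9 and 3.51 with GFP plus DFO, near the lowest deposited value of 1, so its size is poorly measured. Mars2 read 100.0 and 93.2 with GFP and 35.1 and 32.7 with GFP plus DFO (-1.51 ± 0.45, adjusted p = 0.0692), with no overlap. Aars2, Ears2, Mars2, Sars2 and Vars2 of this set and Tarsl2 of the cytosolic set were below the median gene level. The SEs of Aars2, Mars2, Sars2 and Vars2 ran from 0.45 to 1.23, so that missing the threshold says little about them. Those of Ears2 (0.20) and Tarsl2 (0.14) were like those of the brighter Fars2 (0.20) and Cars2 (0.15). For Ears2 and Tarsl2 too, missing the threshold does not show that nothing changed. Yars2 and Cars2 gave 0.02 ± 0.10 and 0.02 ± 0.15, with 95% intervals of -0.24 to 0.28 and -0.35 to 0.39. The others gave -0.40 ± 0.58 (Vars2), -0.31 ± 0.15 (Hars2), -0.29 ± 0.14 (Iars2), 0.17 ± 0.21 (Pars2) and 0.19 ± 0.59 (Sars2), besides Ears2, Fars2 and Tars2, which are described further on.

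**Figure D2:**
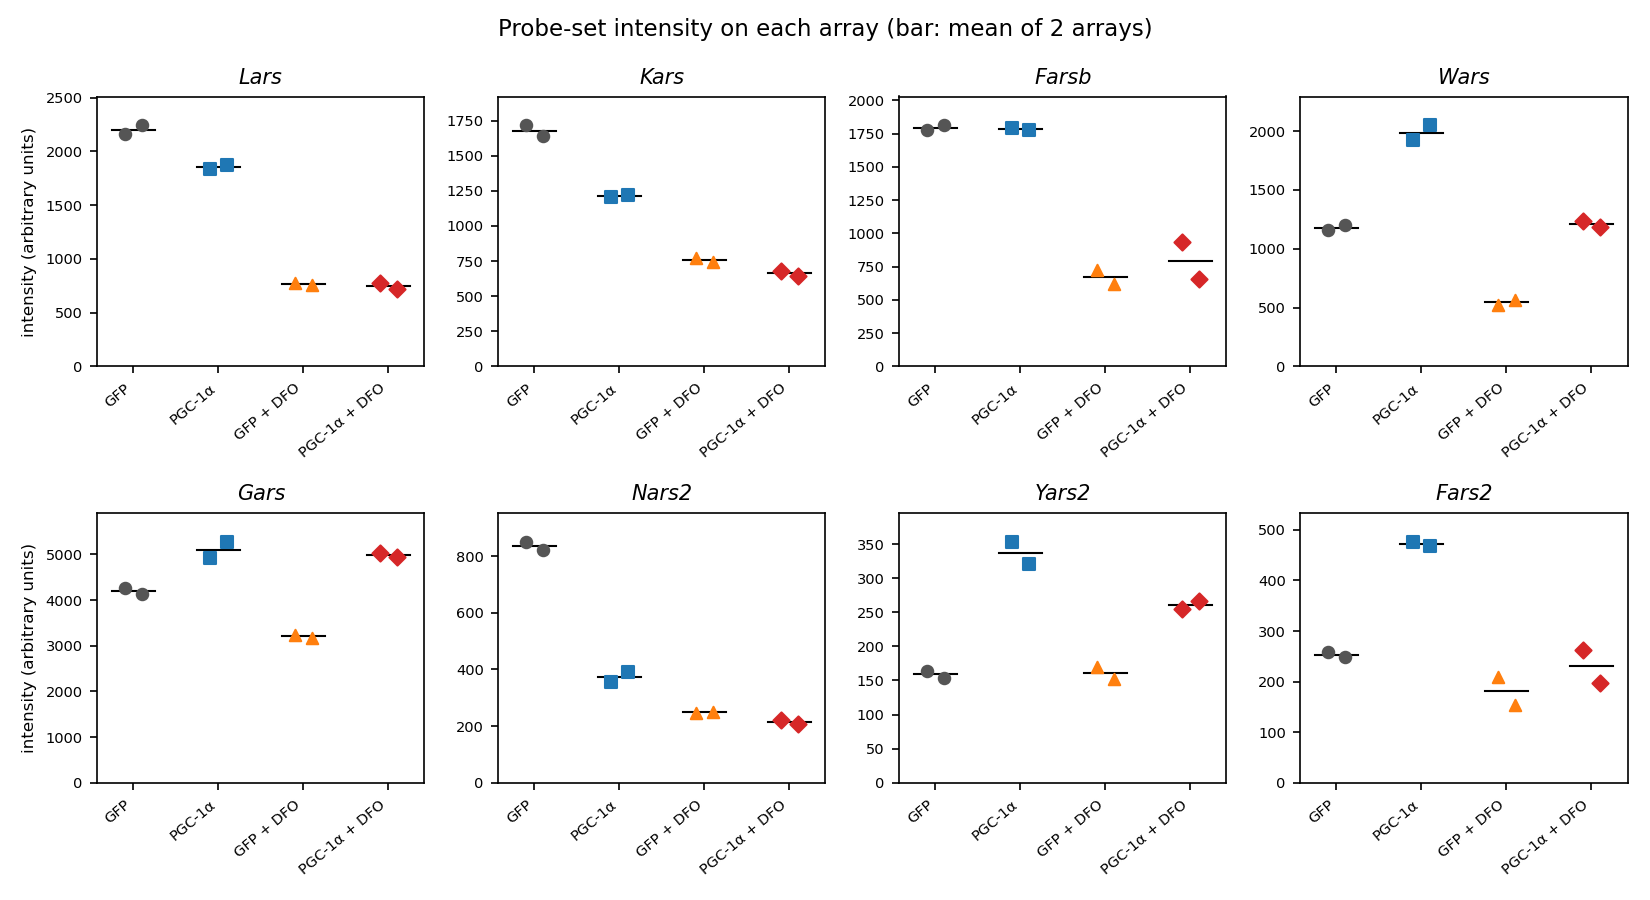
Probe-set intensity (y axis, arbitrary units, from 0) of 8 synthetases on each of the 8 arrays, with the mean of each group as a bar. Lars, Kars and Farsb are low on all DFO arrays, Nars2 is low on all arrays but those with GFP alone, Wars is high with PGC-1α and low with GFP plus DFO, and Yars2 is higher on every PGC-1α array than on any GFP array.

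Of the calls in this comparison, those of Aars, Farsb, Kars, Lars, Mars1, Nars, Nars2, Rars, Wars and Yars held in all 8 alternatives run and with each of the 8 arrays left out in turn. Each of the other 9 (Eprs, Gars, Hars, Iars, Lars2, Rars2, Sars, Tars and Vars) was lost without either GFP plus DFO array and after scaling to the spike-in controls, which left 8 cytosolic genes and 1 mitochondrial gene. The count of 15 cytosolic genes dropped to 8 without either GFP plus DFO array and to 10 without either GFP array, and the mitochondrial count of 3 to 1 without GFP replicate 1 or either GFP plus DFO array and to 2 without GFP replicate 2.

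DFO was also set against none in PGC-1α cells. Of the 19 cytosolic genes 9 fell and 0 rose, and of the 16 mitochondrial genes 8 fell and 0 rose, beside 14.2% of all genes called lower and 11.4% higher. Most of these calls did not hold after scaling to the spike-in controls, which left 2 cytosolic genes and 0 mitochondrial genes. Most were also lost with only the groups compared in the fit, which left 2 and 1. All genes gave 4662 calls in the main fit, 4201 with that scaling and 1942 with only the groups compared. The cytosolic median was -0.32, and 0.12 after the spike-in scaling; the mitochondrial median was -0.69, and -0.25 after that scaling. Spike-in signal was lower on the PGC-1α plus DFO arrays (mean log2 8.11 and 7.97) than on the other 6 (8.35 to 8.77), so this scaling raises all genes on those arrays, with a median of all genes of 0.45 in this comparison in place of 0.0090. Relative to the median of all genes, the medians were -0.33 and -0.70 under both scalings. Which scaling is right was not tested.

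Lars again fell furthest among the cytosolic enzymes (-1.31 ± 0.08, adjusted p = 0.000532), followed by Farsb (-1.19 ± 0.19, adjusted p = 0.00878), Vars, Wars, Rars, Tars, Tarsl2, Aars and Mars1. Vars, the valine enzyme, read 356 and 446 with PGC-1α and 249.7 and 228 with PGC-1α plus DFO (-0.74 ± 0.13, adjusted p = 0.0131). The calls of Mars1 (adjusted p = 0.0498) and Tarsl2 (adjusted p = 0.0499) were at the threshold. Kars fell by 0.87 ± 0.08 on the log2 scale (adjusted p = 0.00169). Gars, Nars, Yars, Iars, Sars, Eprs and Hars, which had fallen with DFO in GFP cells, did not pass here: Gars gave -0.03 ± 0.08 (adjusted p = 0.822) and Hars, at the other end, -0.32 ± 0.10 (adjusted p = 0.065).

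The 8 mitochondrial genes that fell were Mars2 (-1.81 ± 0.45), Ears2 (-1.21 ± 0.20), Fars2 (-1.05 ± 0.20), Lars2 (-0.89 ± 0.17), Nars2 (-0.81 ± 0.09), Rars2 (-0.73 ± 0.10), Hars2 (-0.65 ± 0.15) and Iars2 (-0.52 ± 0.14), with adjusted p-values from 0.00304 for Nars2 to 0.0494 for Iars2. Ears2 is the mitochondrial glutamate enzyme, which in this organelle also starts the route to glutaminyl-tRNA. It read 152 and 115 with PGC-1α against 51.4 and 63.4 with PGC-1α plus DFO, and 91.5 and 114 with GFP against 75.7 and 71.9 with GFP plus DFO. In both backgrounds the DFO arrays were below the others. Fars2, the single-chain mitochondrial phenylalanine enzyme, read 477 and 468 with PGC-1α against 262 and 198 with PGC-1α plus DFO. It was 258 and 248 with GFP against 209 and 154 with GFP plus DFO (-0.49 ± 0.20, adjusted p = 0.147), so that the groups did not overlap in either background.

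Without PGC-1α replicate 1 the cytosolic count in PGC-1α cells was 4, without PGC-1α replicate 2 it was 5, and without PGC-1α plus DFO replicate 2 or either GFP plus DFO array it was 6. The mitochondrial count was 4 and 3 without PGC-1α replicates 1 and 2, and 5 without PGC-1α plus DFO replicate 2 or either GFP plus DFO array. The Lars call held in all 8 alternatives and with each array left out, and those of Kars, Nars2, Rars, Rars2 and Wars held with each array left out but not after scaling to the spike-ins (adjusted p = 0.114 for Kars to 0.343 for Rars). Those of Rars and Rars2 were lost with only the groups compared too, and that of Nars2 with averaged probe sets. Each other call was lost without at least 1 array, those of Farsb and Ears2 without PGC-1α replicate 1 alone and that of Vars without PGC-1α plus DFO replicate 2 alone.

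PGC-1α was set against GFP without DFO to ask whether the coactivator raised the mitochondrial enzymes. Most did not pass: of 16 mitochondrial genes 1 rose (Yars2) and 1 fell (Nars2), and of 19 cytosolic genes 2 rose (Wars and Tarsl2) and 2 fell (Cars and Rars). Kars fell as well. Over all genes 4.96% were called higher and 4.77% lower. The mitochondrial median was 0.19 (0.37 after scaling to the spike-ins) and the cytosolic median -0.12 (0.06 after that scaling), while all genes stood at -0.08 (0.09 after that scaling). Relative to all genes the medians were 0.28 and -0.03 under both scalings.

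Yars2, the mitochondrial tyrosine enzyme, read 164 and 154 with GFP, 354 and 321 with PGC-1α, 169.9 and 152 with GFP plus DFO, and 255 and 267 with PGC-1α plus DFO. All 4 PGC-1α arrays were above all 4 GFP arrays. The change without DFO was 1.09 ± 0.10 (adjusted p = 0.00603), the largest rise among the 36 genes, and the call was lost without PGC-1α replicate 1 (adjusted p = 0.053). Its second probe set gave 0.66 ± 0.28 in the fit of every probe set on its own, which did not pass (adjusted p = 0.277).

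Nars2 moved the other way, from 851 and 821 to 357 and 391 (-1.16 ± 0.09, adjusted p = 0.00424). Its second, dim probe set gave -0.67 ± 0.41 (adjusted p = 0.426). Fars2, at 477 and 468 against 258 and 248, was 0.90 ± 0.20 higher, just short of the threshold (adjusted p = 0.0533). Ears2, Hars2 and Lars2 had values of 0.37 ± 0.20, 0.37 ± 0.15 and 0.34 ± 0.17 (adjusted p = 0.3, 0.194 and 0.268). For each the PGC-1α arrays lay above the GFP arrays. Tars2 (-0.35 ± 0.20), Vars2 (-0.41 ± 0.58) and Pars2 (-0.17 ± 0.21) did not pass either, and the PGC-1α arrays of Tars2 lay below its GFP arrays. The others ran from 0.03 ± 0.14 (Iars2) to 0.84 ± 0.59 (Sars2). Of the 16 changes 12 were positive and 4 negative. The groups did not overlap for 6 genes upwards and 2 downwards, and the share over all genes is not given here.

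In the cytosolic set Wars read 1922 and 2048 with PGC-1α against 1158 and 1199 with GFP, so the groups lay well apart. The change was 0.75 ± 0.09 (adjusted p = 0.0108). All 4 of its probe sets had positive changes, from 0.64 to 0.79. Tarsl2 read 144 and 131 against 83.2 and 83.7 (0.72 ± 0.14, adjusted p = 0.0407). The falls were shallow: Cars, the cysteine enzyme, read 733 and 742 against 1010 and 985 (-0.44 ± 0.07, adjusted p = 0.0277), Rars read 3472 and 3490 against 4692 and 4618 (-0.42 ± 0.08, adjusted p = 0.0421), and the Kars change was -0.47 ± 0.08 (adjusted p = 0.0295). A second probe set of Cars, near background, gave 1.19 ± 1.90, and the mean of the probe sets turned the sign of Cars to 0.38. The cytosolic count of 4 was 0 without any 1 of the GFP or PGC-1α arrays and 1 without either GFP plus DFO array; the mitochondrial count of 2 was 1 without PGC-1α replicate 1 and 3 without either PGC-1α plus DFO array. The Wars call was lost without any 1 of the GFP or PGC-1α arrays, and those of Tarsl2, Cars, Rars and Kars without any 1 of these or of the GFP plus DFO arrays. The Nars2 call held with each array left out but was lost with averaged probe sets (highest adjusted p over its alternatives 0.0897). After scaling to the spike-ins every synthetase call in this comparison but that of Yars2 was lost, and with only the groups compared all were. Over all genes the 1770 calls of the main fit became 508 with that scaling and 0 with only the groups compared. As the latter fit called no gene at all, it says nothing particular about the synthetases.

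With DFO present, PGC-1α was set against GFP in the same way. Of the cytosolic genes 4 rose (Wars, Gars, Nars and Yars) and 1 fell (Cars), and of the mitochondrial genes 1 rose (Yars2) and 0 fell, beside 6.93% of all genes called higher and 12% lower. The cytosolic median was 0.13 and the mitochondrial -0.11, but 0.74 and 0.50 after scaling to the spike-ins. That scaling took the median of all genes from -0.05 to 0.57. With that scaling 94% of the calls over all genes were higher against 36.6% without it. Relative to all genes the medians were 0.17 and -0.07 under both scalings.

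Wars read 1233 and 1186 with PGC-1α plus DFO against 522 and 566 with GFP plus DFO, a change of 1.15 ± 0.09 (adjusted p = 0.00189). Those PGC-1α plus DFO arrays stood at the level of GFP alone, 1158 and 1199, in the deposited values. Mean log2 spike-in signal was 8.11 and 7.97 on them and 8.68 and 8.63 with GFP. Scaling to the spike-ins would therefore place Wars above its GFP level there. All 4 probe sets of Wars rose in the fit of every probe set, by 0.94 to 1.15, and the call held in all 8 alternatives and with each array left out. Gars read 5035 and 4936 against 3244 and 3161 (0.64 ± 0.08, adjusted p = 0.00732), and without DFO 4922 and 5278 against 4265 and 4124 (0.28 ± 0.08, adjusted p = 0.0985). Its PGC-1α arrays were thus above its GFP arrays in both backgrounds, but the call was lost without either GFP plus DFO array.

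Nars, the cytosolic asparagine enzyme, read 3792 and 3516 against 2745 and 2615 (0.45 ± 0.08, adjusted p = 0.0228). Yars, which charges tyrosine in the cytosol, read 1198 and 1111 against 885 and 826 (0.43 ± 0.09, adjusted p = 0.0299). Yars2 was 0.70 ± 0.10 higher (adjusted p = 0.0112), and Cars 0.35 lower (-0.35 ± 0.07, adjusted p = 0.0321; 0.27 after scaling to the spike-ins). The calls of Yars and Cars were lost with any array left out, that of Yars2 without either GFP plus DFO array, and that of Nars without either of these, either PGC-1α array or PGC-1α plus DFO replicate 1. The cytosolic count of 5 was 3 without either GFP array, 2 without either PGC-1α array or PGC-1α plus DFO replicate 1, and 1 without either GFP plus DFO array. The mitochondrial count of 1 was 0 without either GFP plus DFO array and 3 without PGC-1α plus DFO replicate 1. With only the groups compared each synthetase call here but that of Wars was lost. With averaged probe sets those of Cars, Nars, Yars and Yars2 were lost. All genes gave 3446 calls in the main fit, 861 with only the groups compared and 2213 with averaged probe sets.

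**Figure D3:**
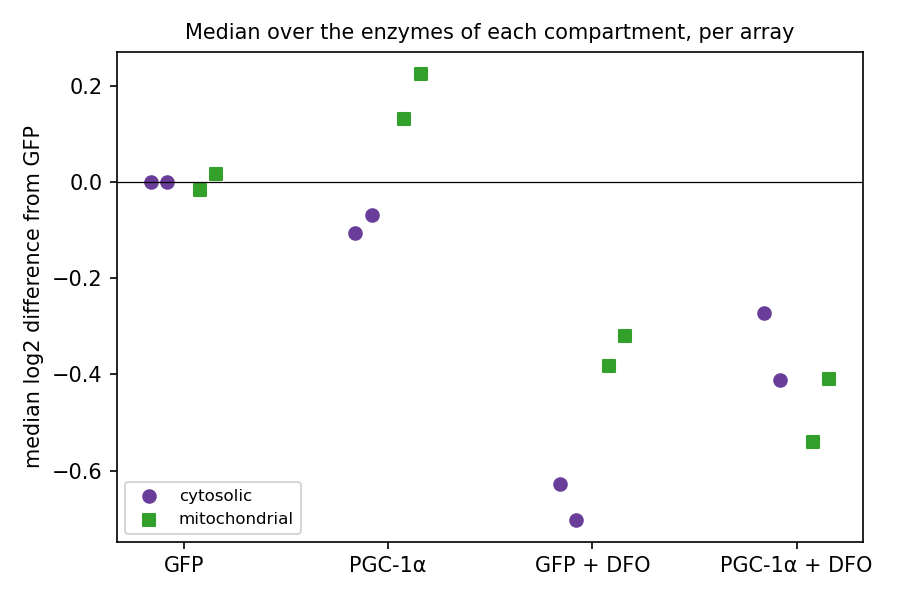
Median over the 19 cytosolic (circles) and over the 16 mitochondrial (squares) enzymes of the log2 difference from the mean of the GFP arrays (y axis), for each of the 8 arrays by group (x axis). The GFP plus DFO arrays have cytosolic medians of -0.63 and -0.70, those of PGC-1α plus DFO -0.27 and -0.41, and the mitochondrial medians of the groups with DFO lie between -0.54 and -0.32.

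The array medians show how the compartments were placed. With PGC-1α the mitochondrial medians were 0.13 and 0.22 and the cytosolic ones -0.11 and -0.07. With GFP plus DFO the cytosolic medians (-0.63 and -0.70) were below the mitochondrial ones (-0.38 and -0.32), and with PGC-1α plus DFO the cytosolic ones (-0.27 and -0.41) were close to or above the mitochondrial ones (-0.54 and -0.41).

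The interaction, the change with PGC-1α under DFO minus that without, is the test of whether the effects of DFO differed between GFP and PGC-1α cells. No synthetase passed limma's adjusted threshold, beside 0.231% of all genes called higher and 0.324% lower; at an unadjusted p under 0.05 there were 9 cytosolic genes, all positive, and 3 mitochondrial genes, 1 positive and 2 negative, beside 17.4% of all genes. The smallest adjusted p was that of Nars2 (0.94 ± 0.13, adjusted p = 0.0601), followed by Nars (0.56 ± 0.12, adjusted p = 0.119). The cytosolic values were positive for 17 of 19 genes with a median of 0.27 (0.71 after scaling to the spike-ins), and the mitochondrial ones negative for 12 of 16 with a median of -0.26 (0.18 after that scaling); relative to all genes these were 0.29 and -0.25 under both scalings. With limma's trend and robust options 8 cytosolic genes and 1 mitochondrial gene passed, beside 8.06% of all genes. The differences between the DFO effects in GFP and in PGC-1α cells described above were therefore not shown by this test.

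Enzymes for the same amino acid were set side by side in 18 cytosolic and mitochondrial pairs, in which Eprs, Fars2 and Tars2 each appear more than once. With DFO in GFP cells the cytosolic member had the lower change in 12 of the 18, and with PGC-1α without DFO in 14. The corresponding counts were 7 with PGC-1α under DFO and 7 with DFO in PGC-1α cells. The counts of 12 and 14 are by sign and include near ties: Eprs/Ears2 with DFO (-0.0072) and Tars/Tars2 with PGC-1α (-0.037). For these 2 comparisons, the difference between members did not overlap between the groups in 9 and 10 pairs in that direction. It did not overlap in the other direction in 4 and 3. Among the 13 pairs with a mitochondrial member above the median level, the counts by sign were 9 and 10. For tyrosine the cytosolic gene had -0.68 ± 0.09 with DFO in GFP cells (adjusted p = 0.00546) against 0.02 ± 0.10 for Yars2, and 0.07 ± 0.09 with PGC-1α without DFO (adjusted p = 0.671) against 1.09 ± 0.10. For tryptophan DFO in GFP cells gave -1.12 ± 0.09 for Wars and 0.21 ± 0.14 for Wars2. The asparagine pair stood the other way, with -0.82 ± 0.08 for Nars and -1.75 ± 0.09 for Nars2, and with PGC-1α -0.12 ± 0.08 (adjusted p = 0.436) and -1.16 ± 0.09. The differences within pairs were not tested.

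**Figure D4:**
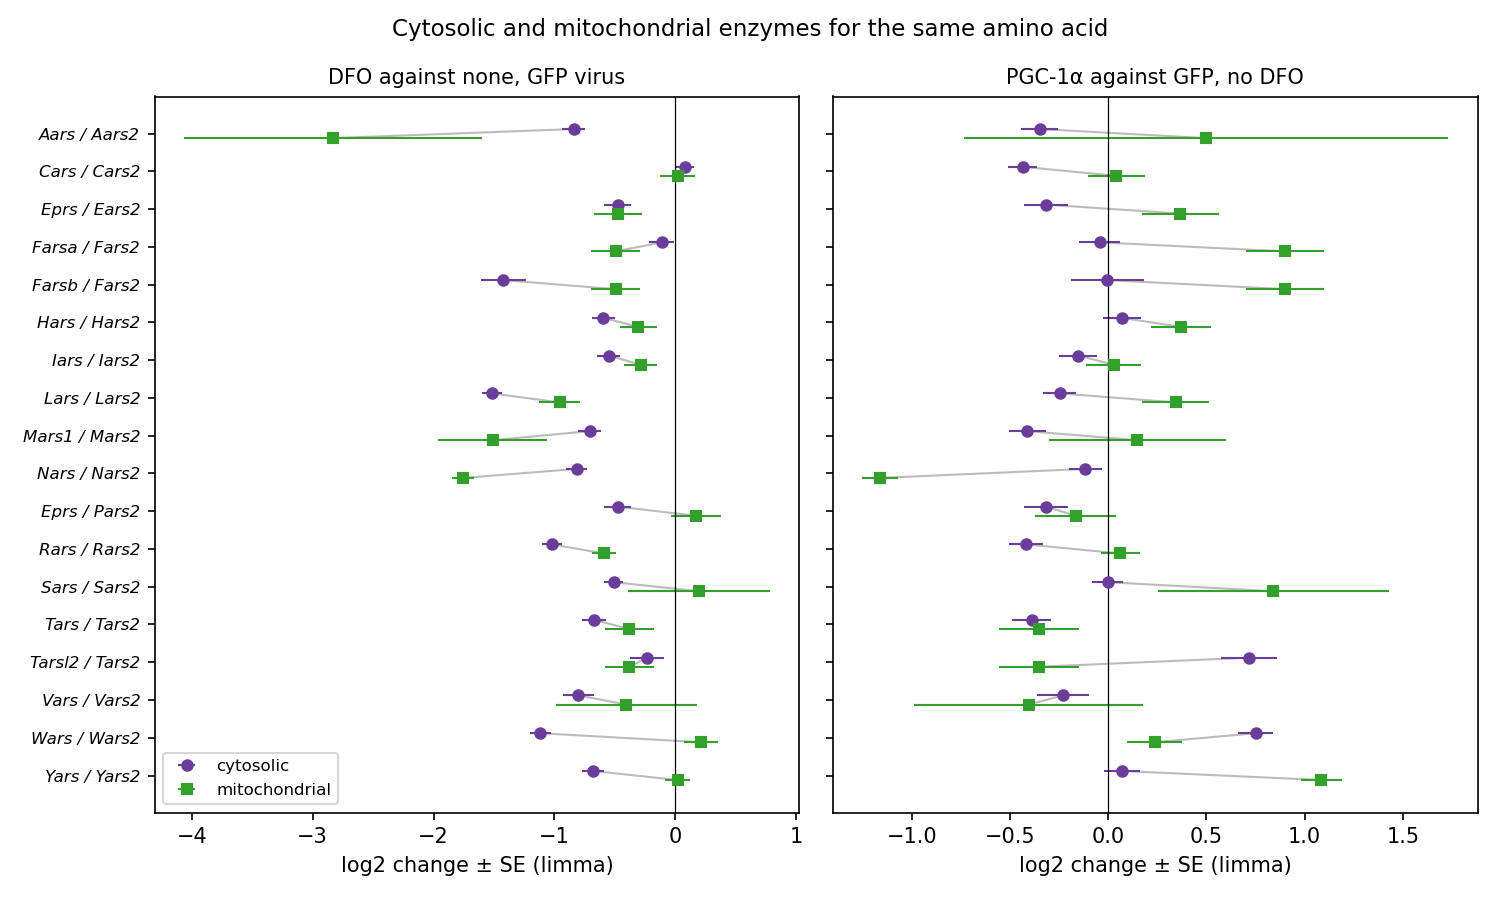
Log2 change ± SE (x axis) of the cytosolic (circles) and mitochondrial (squares) enzyme for the same amino acid, joined by a line, for 18 pairs, with DFO against none in GFP cells (left) and PGC-1α against GFP without DFO (right). Circles lie to the left of squares in 12 pairs on the left and in 14 on the right, and Nars lies to the right of Nars2 in both panels; the x axes differ.

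Where a gene has several probe sets they did not always give the same picture. For Qars, the glutamine enzyme of the complex, the probe set used (the brightest) gave -0.0011 ± 0.13 for PGC-1α against GFP with DFO, while a pair of the others fell by 0.86 ± 0.11 and 0.77 ± 0.10 (limma adjusted p = 0.0156 for both, over all probe sets). The fourth was dim. For Tars2, the mitochondrial threonine enzyme, the probe set used gave -0.38 ± 0.21 with DFO in GFP cells and -0.24 ± 0.21 in PGC-1α cells, neither of which passed. Its second probe set fell by 1.34 ± 0.13 and 1.25 ± 0.13 (adjusted p = 0.00403 and 0.00405). For Ears2 the call with DFO in PGC-1α cells rests on the brightest probe set (-1.21): the next ones, both dim, gave 0.54 ± 0.46 and 0.93 ± 0.29, neither of which passed, and the mean of its probe sets gave -0.05 (adjusted p = 0.958). One of these dim probe sets rose by 2.41 ± 0.29 with PGC-1α under DFO (adjusted p = 0.0132), where the one used gave -0.37 ± 0.21. The fall of Lars2 with DFO in GFP cells went from -0.96 to -0.38 with averaged probe sets, and that call was lost. In all 73 probe sets carry a single member's symbol, and 23 of the 36 members have more than 1.

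The other proteins of the same machinery were described from lists, whose counts stand beside the shares of all genes given above for each comparison. Of the 3 scaffold proteins of the multi-synthetase complex, Eef1e1 and Aimp1 fell with DFO in GFP cells and Aimp2 did not pass. Eef1e1 read 1448 and 1349 with GFP and 742 and 695 with GFP plus DFO (-0.96 ± 0.11, adjusted p = 0.00326), and Aimp1 1543 and 1515 against 971 and 986 (-0.64 ± 0.10, adjusted p = 0.00829). With DFO in PGC-1α cells Eef1e1 and Aimp1, 2 of the 3, fell as well. Of 6 measured cytosolic elongation factor genes, 1 fell with DFO in GFP cells, Eef1b2 (-0.41 ± 0.09, adjusted p = 0.0271). Of 4 editing enzymes, which remove wrongly joined amino acids, 1 fell there, Dtd2 (-0.51 ± 0.13, adjusted p = 0.0395). For both of these lists 1 call is near the 12.5% of all genes called lower.

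Of 25 measured genes for mitochondrial tRNA handling and translation factors, 7 rose and 0 fell with PGC-1α without DFO, with a median of 0.41, where 4.96% of all genes were called higher. Gfm1, a mitochondrial elongation factor, read 738 and 743 with GFP and 2110 and 2088 with PGC-1α (1.50 ± 0.08, adjusted p = 0.00201). Qrsl1, a subunit of the amidotransferase that completes glutaminyl-tRNA from the product of Ears2, read 273 and 308 against 794 and 841 (1.50 ± 0.14, adjusted p = 0.00583). Tufm, which delivers charged tRNAs to the mitochondrial ribosome, rose by 1.25 ± 0.10 (adjusted p = 0.00443). Under DFO 12 of the 25 rose with PGC-1α and 1 fell (Mtfmt, which formylates the mitochondrial initiator tRNA, -0.74 ± 0.12, adjusted p = 0.0167). With DFO 9 fell in GFP cells and 0 rose, led by Lrpprc (-1.65 ± 0.17, adjusted p = 0.00235), Gfm2 (-1.27 ± 0.11, adjusted p = 0.00144) and Elac2 (-1.09 ± 0.12, adjusted p = 0.00272), and 11 fell and 1 rose (Gatc, a further subunit of the amidotransferase, 0.59 ± 0.10, adjusted p = 0.0111) in PGC-1α cells.

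Of 26 measured genes of ATF4 and the amino acid response, 13 fell and 5 rose with DFO in GFP cells, with a median of -0.46, where 12.5% of all genes were called lower and 11.8% higher. Asns, asparagine synthetase, an enzyme of amino acid synthesis and not of tRNA charging, read 4519 and 4563 with GFP and 1828 and 1937 with GFP plus DFO (-1.27 ± 0.08, adjusted p = 0.000578). Psat1 and Phgdh, of serine synthesis, had changes of -1.42 ± 0.08 and -2.36 ± 0.09, and Fgf21, a secreted stress factor, -5.02 ± 0.23 (adjusted p = 0.000406, 0.000213 and 0.0003). Those that rose were Ddit4 (2.24 ± 0.09, adjusted p = 0.000263), an inhibitor of mTORC1 signalling that is also induced by hypoxia, together with Ddit3, Cebpb, Eif4ebp1 and Atf3. The Atf4 transcript itself had a change of 0.05 ± 0.08 (adjusted p = 0.695). With PGC-1α without DFO 1 rose (Ddit3) and 1 fell (Nupr1), with PGC-1α under DFO 3 rose and 8 fell, and with DFO in PGC-1α cells 6 rose and 15 fell. In that last comparison Asns had -0.66 ± 0.08 (adjusted p = 0.00372).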

How the data were processed

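RNA was measured on 8 Affymetrix mouse arrays, 4 groups of 2. Per the deposited tables, values are linear intensities, 1 per probe set. The authors' probe summary, background correction and scaling are not given in the sources used, though array medians were already close. Values were log2-transformed with no pseudocount or filter. The platform annotation gave 1 symbol for 34945 of 45101 probe sets, several for 932 and none for 9160, with 64 controls, and each gene took the probe set of highest mean with that symbol alone. The number of arrays limits the precision.

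A model with 1 mean per group was fitted to the 8 arrays in limma 3.58.1 (R 4.3.3), giving 4 residual degrees of freedom, to which eBayes added 1.3; 5 contrasts were taken, and p-values were adjusted by Benjamini-Hochberg over all 18193 genes. An exact two-sided permutation test on 2 and 2 arrays cannot go below p = 0.333, so p-values rest on the spread that limma pools. Tested on simulated data for PGC-1α against GFP without DFO, over 18193 genes, the fit called 2 of 100 genes changed by 0.5 (log2) and 68 of 100 changed by 1, all above the median level, with 9 false calls among 17993 unchanged genes. No other genes were changed there, while the deposited data gave 1770 calls in that comparison. The adjustment is stricter where fewer genes change, so these shares do not give what the fit would find in the deposited data. The members and lists were chosen with earlier results of these data known. By rule every synthetase was described, and of each list of other genes up to 3 with the largest called change with DFO in GFP cells and with PGC-1α without DFO, with Ppargc1a and Myog; Asns, Psat1, Atf4, Atf3, Cebpb, Eif4ebp1, Gatc and Mtfmt were chosen after their values were seen. The alternatives were quantile normalization, scaling to 24 poly-A spike-in probe sets, averaging a gene's probe sets, leaving out those with _x_at or _s_at names, genes above the median level, eBayes with trend and robust options, only the groups compared, the replicate number as a block, and each array left out; a fit of every probe set was chosen after seeing the data. Replicate numbers were not used to pair the arrays in the main fit, and pairing by them was not excluded. Promoter windows were searched in Python 3.11.15 (the matched sequence of 1 gene is not reported here), and figures drawn with matplotlib 3.10.9. No genome build was given for the arrays.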

Additional observations from a re-analysis of the deposited data

How the results depend on the processing

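The 50 calls on single synthetases over the 4 comparisons kept their direction in each alternative run (8 for 46 calls, and 7 for those of Ears2, Mars2 and Tarsl2, which are not above the median level) and with each array left out, except Cars with PGC-1α without DFO when probe sets were averaged (0.38), Eprs with DFO in GFP cells without _x_at and _s_at probe sets (0.053), and, after scaling to the spike-ins, Cars with PGC-1α under DFO (0.27) and Mars1 with DFO in PGC-1α cells (0.088). Counts of called genes that moved by over 1.5 times were these, cytosolic first. For PGC-1α without DFO (4 and 2) the cytosolic count was 0 with the spike-ins and 1 with averaged probe sets. It was 9 among genes above the median level and 10 with trend and robust options. With only the groups compared it was 0, and with the replicate block 1. The mitochondrial count was 1 with averaged probe sets and 0 with only the groups compared. All genes gave 1770 calls in the main fit, 508 with the spike-ins and 940 with averaged probe sets. They gave 3524 among the 9096 above the median level and 3746 with trend and robust options. With only the groups compared all genes gave 0 calls, and with the replicate block 1060. For DFO in GFP cells (15 and 3) the synthetase counts were 8 and 1 with the spike-ins. The mitochondrial count was 6 with trend and robust options. All genes gave 4409 calls in the main fit, 2230 with the spike-ins and 5623 with trend and robust options. For PGC-1α under DFO (5 and 1) the synthetase counts were 10 and 3 with the spike-ins and 2 and 0 with averaged probe sets. They were 8 and 2 above the median level and 1 and 0 with only the groups compared. The cytosolic count was 8 without _x_at and _s_at probe sets and 9 with trend and robust options. All genes gave 3446 calls in the main fit, 4044 with the spike-ins and 2213 with averaged probe sets. They gave 4654 among the 9096 above the median level and 861 with only the groups compared. Without _x_at and _s_at probe sets all genes gave 3275 calls, and with trend and robust options 4992. For DFO in PGC-1α cells (9 and 8) the synthetase counts were 2 and 0 with the spike-ins. They were 2 and 1 with only the groups compared. The mitochondrial count was 2 with averaged probe sets and 5 with the replicate block. All genes gave 4662 calls in the main fit, 4201 with the spike-ins and 1942 with only the groups compared. They gave 3458 with averaged probe sets and 4037 with the replicate block. For the interaction all genes gave 101 calls in the main fit and 206 with quantile normalization. They gave 1316 among the 9096 above the median level and 1467 with trend and robust options. The synthetase counts there (0 and 0) were 1 and 1 above the median level and 8 and 1 with trend and robust options. The mitochondrial count was 1 with quantile normalization. With an array left out, the ranges were 0 to 5 and 1 to 3, 8 to 15 and 1 to 4, 1 to 4 and 0 to 3, 4 to 10 and 3 to 7, and 0 to 0 for both, in that order of comparisons. In the fit of every probe set, chosen after seeing the data, 13 cytosolic and 3 mitochondrial probe sets of those used fell with DFO in GFP cells, and 7 and 5 in PGC-1α cells. With PGC-1α without DFO 1 cytosolic probe set rose and 0 fell, and 1 mitochondrial rose and 1 fell. Under DFO 2 cytosolic and 1 mitochondrial rose with PGC-1α and 0 fell. Kars passed in neither of these comparisons of PGC-1α with GFP. The calls over all probe sets in that fit were not counted.

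Replicate numbers were not used to pair the arrays in the main fit. Correlations of deviations from group means ran from -0.11 to 0.22, the highest between the groups with DFO, which cannot exclude pairing. With the replicate block 12 of the 50 calls were lost, with scaling to the spike-ins 30 and the 2 turned above, and with only the groups compared 27. The causes were not tested, except that fitting only the groups compared uses fewer arrays. Signal over background limits Aars2, Ears2, Mars2, Sars2, Vars2 and Tarsl2, and the number of arrays limits all values.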
